A study of Mus musculus with 5 samples.

Results

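The genes described here encode the enzymes and transporters of glycolysis and the best known transcripts that cells make when oxygen is low. They were chosen by name, 33 genes in all, with earlier results of these data known. Each was read from the brightest probe set that the platform annotation gives to that gene alone. Of the 18193 genes that could be named in this way, 29 were members. Gpi1, Gapdh, Eno1 and Bnip3l had no such probe set in the annotation used and were not analysed here. Car9 lay under the lower limit on signal, which left 28 members among 10852 genes tested.

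RNA came from cultured mouse B9 cells. The line derives from squamous carcinoma of the skin, and all samples carried the genotype HRAS-Q61L, an activated form of the RAS protein that signals through RAF kinases. Treatment lasted 17 h, with 1 µM vemurafenib (PLX4032, an inhibitor of mutant BRAF), with 1 µM PLX7904 (a BRAF inhibitor of the class called paradox breakers) or with the vehicle, given as 0.2% DMSO. There were 2 vemurafenib arrays, 2 PLX7904 arrays and 1 DMSO array, each an Affymetrix 3′ array, so that precision is limited by how few there are. The compound volume in the protocol implies less DMSO in the treated dishes than the vehicle label states, so whether vehicle content was matched is not known for the comparisons with DMSO. The arrays are labelled biological replicates of 1 line, with nothing on separate cultures. A p-value here measures only how far such arrays spread, which may be technical, and the spread of the single DMSO array had to be taken from the others.

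Glycolysis splits glucose into pyruvate, and lactate dehydrogenase turns pyruvate into lactate, so that the pathway can run without oxygen. Hypoxia-inducible factor (HIF) is a transcription factor whose alpha subunit is hydroxylated and destroyed when oxygen is present and accumulates when oxygen is low or when growth signalling raises its synthesis. It binds DNA at sites with the core letters ACGTG or GCGTG and raises most enzymes of glycolysis, as well as factors for blood vessel growth, acid-base balance, mitophagy and collagen maturation. RAS-transformed cells are known for a high rate of glycolysis even in air.

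Brightness was a feature of the data quality that bore on these genes. Array medians were 49.5 with DMSO, 44.1 and 44.5 with vemurafenib and 47 and 51.9 with PLX7904, so that the vemurafenib arrays were lowest. Log2 signals of the 2 arrays of a treatment correlated at r = 0.990 for vemurafenib and 0.989 for PLX7904 over the genes tested. Differences from DMSO grew with brightness. In the brightest 2% of genes, to which Ldha, Pgk1 and Tpi1 belong, the median log2 difference between vemurafenib and DMSO was 0.16. In the dimmest 50%, which hold 11 members, it was -0.14. Between PLX7904 and DMSO the same medians were 0.14 and -0.05, and between vemurafenib and PLX7904 they were 0.02 and -0.08. All 10 keratinocyte markers passed the limit on signal, with means from 1628 (Itgb4) to 24641 (Krt6a). Of markers of other cells, 1 of 7 for fibroblasts, 1 of 6 for endothelium, 2 of the 5 for immune cells on the arrays and 2 of 6 for melanocytes passed it, and Col1a1, Pecam1, Ptprc and Mlana had means of 17.8, 48.4, 30.3 and 2.25. The summed fibroblast markers read 185 on the DMSO array, 408 and 378 with vemurafenib and 207 and 251 with PLX7904. This followed mainly Pdgfra, which rose 2.89-fold with vemurafenib over DMSO (adjusted p = 0.00327). The summed melanocyte markers read 147 with DMSO, 196 and 216 with vemurafenib and 212 and 247 with PLX7904, with Tyr and Mlana means of 19.8 and 2.25. Among them Pmel read 12.4 with DMSO, 85.5 and 82.8 with vemurafenib and 72.2 and 60.8 with PLX7904. Pmel rose 5.57-fold with vemurafenib over DMSO (adjusted p = 0.00938). Mitf, the other melanocyte marker past the limit, went the other way. It read 96.6 with DMSO, 63.4 and 61.5 with vemurafenib and 84.5 and 73.8 with PLX7904. Its log2 difference between vemurafenib and DMSO was -0.60 and did not pass (adjusted p = 0.348). Summed endothelial markers were 194 with DMSO, 80.2 and 130 with vemurafenib and 87.3 and 218 with PLX7904, and summed immune markers lay between 239 and 273 on all arrays. The part of these markers in the results was not tested.

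The first comparison, of vemurafenib with DMSO, asked which of these transcripts move when HRAS-mutant cells meet a BRAF inhibitor of the older class. Ndrg1, Vegfa, Hk2 and Aldoa rose, between 1.21-fold and 1.82-fold, and Pdk1 was 1.64 times lower. Of the 28 members tested, 4 rose and 1 fell at an adjusted p under 0.05 by limma, and 23 did not pass. Of all genes tested 10.6% passed in either direction. The share that rose was 14.3% of the members, where 5.43% of all genes tested were higher, and the share that fell was 3.57%, where 5.21% of all genes were lower. The members' median log2 difference was 0.09, with 17 above 0, and that of all genes was -0.05. The glycolytic enzymes with lactate dehydrogenase had a median of 0.14 over 10 genes, and the other 18 members a median of 0.01. These groups differ in brightness. Ldha, Pgk1, Tpi1, Pgam1, Aldoa and Pkm lie in the brightest 10% of genes, where the 3 ranges had all-gene medians of 0.16, 0.10 and 0.04. The dimmest 50%, with a median of -0.14, hold Pfkl, Pfkp and many of the other members. The part of brightness in the split was not tested. Both vemurafenib arrays read above the DMSO array for 16 members and below it for 8, where 34.2% of all genes tested lay above in this way and 47.7% below. In these bulk samples fewer cells of a kind and less RNA per cell cannot be told apart.

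**Figure D1:**
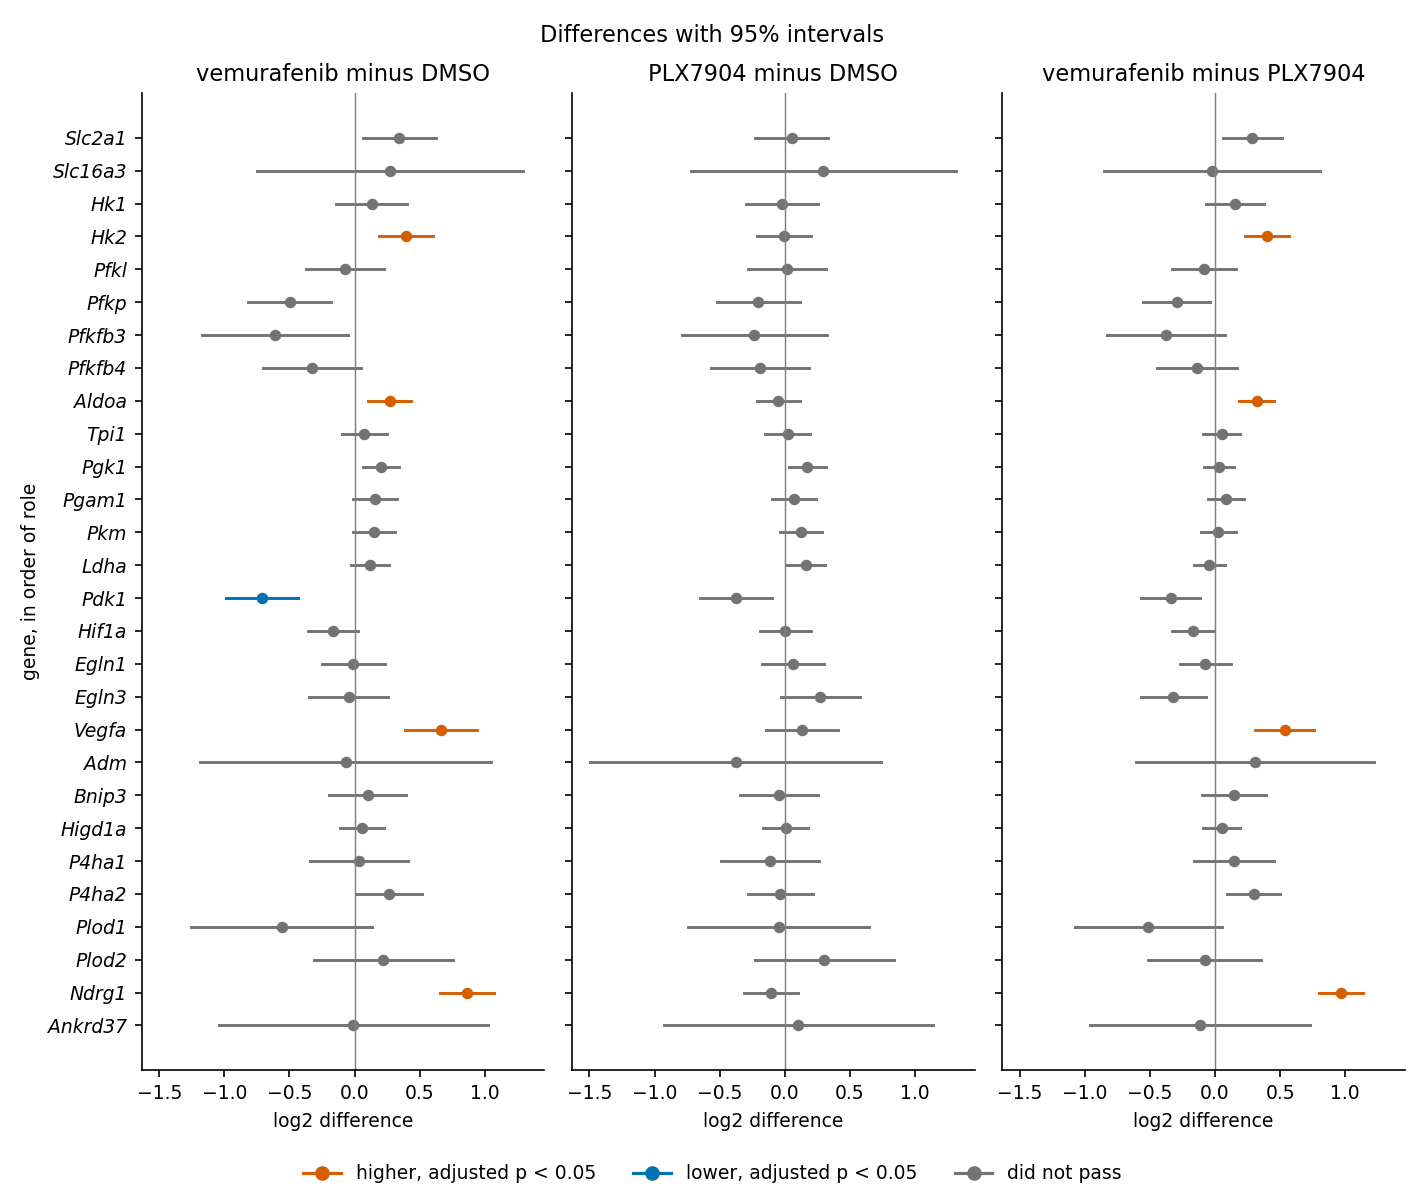
Log2 differences of the 28 tested glycolysis and hypoxia genes (rows, in order of role) in 3 comparisons, with bars for 95% intervals from limma. Ndrg1, Vegfa, Hk2 and Aldoa lie to the right of 0 in the comparisons of vemurafenib with DMSO and with PLX7904, Pdk1 lies to the left in the first, and no gene is coloured in the comparison of PLX7904 with DMSO.

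The second comparison, of PLX7904 with DMSO, called no member higher or lower, and 3 members, Pgk1, Ldha and Pdk1, had an unadjusted p under 0.05. No gene of the 10852 tested passed in this comparison (0% called by limma, 722 with an unadjusted p under 0.05), so the empty count is not a property of these genes. The members' median log2 difference was 0.01, with single values from -0.38 to 0.30. Both PLX7904 arrays lay above the DMSO array for 11 members and below it for 10, against 30.8% and 35.7% of all genes. The members' 95% intervals, unadjusted, reached a median of 0.28 log2 units on either side of the value.

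The third comparison set the compounds against each other at the same dose and time. The same 4 genes, Ndrg1, Vegfa, Hk2 and Aldoa, were higher with vemurafenib than with PLX7904 and no member was lower, 14.3% of the members where 6.43% of all genes were higher and 6.87% lower (13.3% in either direction). The median over members was 0.03, against -0.04 over all genes. Both comparisons of vemurafenib use the same vemurafenib arrays, so they are not independent. On both vemurafenib arrays 9 members read above both PLX7904 arrays and 9 read below both, while 23.8% of all genes tested lay above in this way and 32.2% below.

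**Figure D2:**
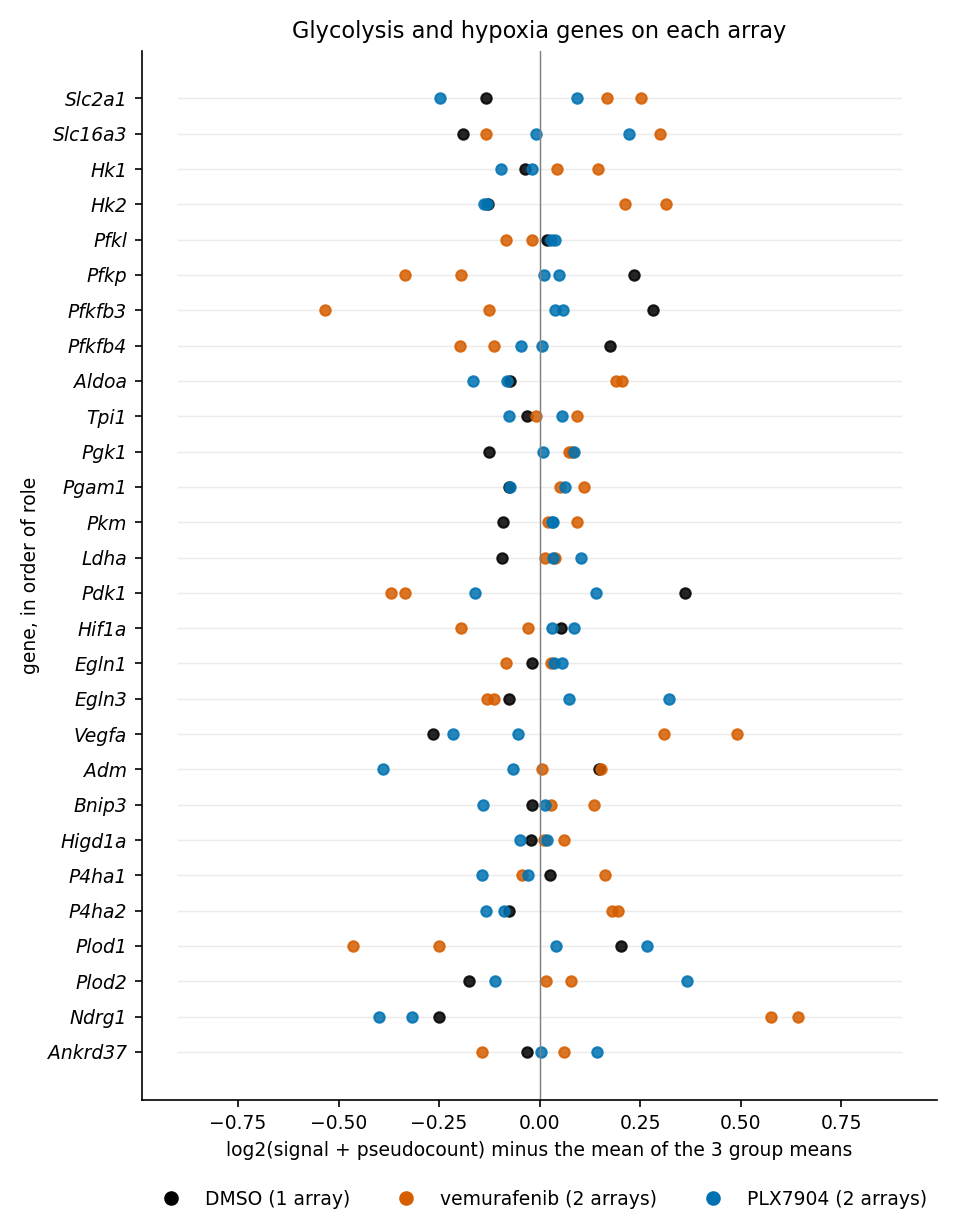
Log2 signal of the 28 tested genes on each of the 5 arrays, shown relative to the mean of the gene's 3 group means, with 1 point per array. The vemurafenib points of Ndrg1, Vegfa, Hk2 and Aldoa lie to the right of all other arrays, those of Pdk1 and Pfkp to the left, and for Pgk1, Pkm and Ldha the DMSO array lies to the left of the 4 treated ones.

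Glucose enters through Slc2a1 (GLUT1), the main glucose transporter of keratinocytes. Its signal was 3173 on the DMSO array, 4147 and 3905 with vemurafenib, and 2928 and 3710 with PLX7904. Both vemurafenib arrays were above the other 3. Slc2a1 did not pass, with a log2 difference from DMSO of 0.34 (SE 0.13, adjusted p = 0.118) and from PLX7904 of 0.29 (SE 0.10, adjusted p = 0.0981). The fit called it against DMSO when PLX7904 replicate 1 (adjusted p = 0.0198) or 2 (adjusted p = 0.0205) was left out, against PLX7904 without PLX7904 replicate 2 (0.46, adjusted p = 0.00823), and in both with median centring (0.49 and 0.43). Its 2 other probe sets read 0.41 and 0.24 against DMSO, and 0.32 and 0.37 against PLX7904. Slc16a3 (MCT4), which exports lactate, was dim, at 49.6 with DMSO, 71.1 and 51.7 with vemurafenib and 56.7 and 67.2 with PLX7904. The DMSO array was below all 4 treated arrays and the compounds overlapped. The interval against DMSO ran from 0.596-fold to 2.45-fold.

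Hexokinase traps glucose in the cell as its phosphate. Hk2, the inducible isoform, read 2228 with DMSO, 2826 and 3033 with vemurafenib, and 2213 and 2227 with PLX7904. The 2 vemurafenib arrays stood apart, and the DMSO array read about as the PLX7904 arrays did. Hk2 rose 1.31-fold over DMSO (95% interval 1.14 to 1.52, adjusted p = 0.0251) and was 1.32-fold higher than with PLX7904 (1.17 to 1.48, adjusted p = 0.0077). Without vemurafenib replicate 2 both calls ended, at log2 0.34 (adjusted p = 0.13) and 0.35 (adjusted p = 0.0597). Hk1, the housekeeping isoform, read 738 with DMSO, 780 and 838 with vemurafenib and 708 and 747 with PLX7904, a log2 difference from DMSO of 0.13 (SE 0.12).

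Phosphofructokinase commits the sugar to glycolysis. Pfkl, the liver-type subunit, differed from DMSO by -0.07 with vemurafenib (SE 0.14). Pfkp, the platelet-type subunit, read 561 with DMSO, 377 and 416 with vemurafenib and 493 and 480 with PLX7904. Both vemurafenib arrays were the lowest and the DMSO array the highest. Its log2 difference from DMSO of -0.50 (SE 0.14, adjusted p = 0.0531) missed the threshold, and it passed as lower at the same size when dimmer genes were left out by a limit at the 75th percentile of signals (adjusted p = 0.0403). A dim second Pfkp probe set (mean signal 55.6, near the limit) read 0.83 in that comparison. That value did not pass (SE 0.53, adjusted p = 0.392 in the fit of probe sets), so its sign is uncertain.

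Pfkfb3 and Pfkfb4 encode enzymes that make and break the sugar bisphosphate which activates phosphofructokinase, and both genes are textbook HIF targets. Pfkfb3 read 208 with DMSO, 156 and 117 with vemurafenib and 175 and 178 with PLX7904. Pfkfb4 read 334 with DMSO, 258 and 274 with vemurafenib and 287 and 298 with PLX7904. In both genes the DMSO array was the highest and the vemurafenib arrays the lowest. The log2 differences between vemurafenib and DMSO, -0.61 for Pfkfb3 (SE 0.25, adjusted p = 0.155) and -0.33 for Pfkfb4 (SE 0.17, adjusted p = 0.255), did not pass.

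The later enzymes were bright and moved little. Aldoa encodes the aldolase that splits the product of phosphofructokinase. On the vemurafenib arrays Aldoa stood above the rest, at 9209 and 9117, against 7595 with DMSO and 7552 and 7119 with PLX7904. It was 1.25-fold higher with vemurafenib than with PLX7904 (95% interval 1.14 to 1.37, adjusted p = 0.00696) and rose 1.21-fold over DMSO (1.08 to 1.35, adjusted p = 0.0446). The rise over DMSO lost its call in 9 of 17 alternatives, among them quantile normalization (log2 0.18, adjusted p = 0.124), cyclic loess (0.18, adjusted p = 0.134) and the fits without vemurafenib replicate 1 (0.26, adjusted p = 0.177) or replicate 2 (0.28, adjusted p = 0.127). The difference from PLX7904 kept its call in each of these 4. All 5 Aldoa probe sets carry a suffix for probes that may match several transcripts. They read 0.08 to 0.41 against DMSO and 0.07 to 0.36 against PLX7904. The dimmest (mean signal 1656) had the lowest value in both and did not pass (adjusted p = 0.7 and 0.714 in the fit of probe sets). In that fit the probe set used for Aldoa did not pass against DMSO (adjusted p = 0.0623).

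Pgk1, the kinase that makes the first ATP of the pathway, read 16496 with DMSO, 18936 and 19035 with vemurafenib and 19078 and 18091 with PLX7904. All 4 treated arrays were above the DMSO array and the compounds overlapped. The log2 difference was 0.20 for vemurafenib (SE 0.06, adjusted p = 0.0717) and 0.17 for PLX7904 (SE 0.06, adjusted p = 0.624). The difference from DMSO passed for vemurafenib when PLX7904 replicate 1 (adjusted p = 0.0279) or 2 (adjusted p = 0.0273) was left out of the fit. The medians over the brightest 2% of genes were 0.16 and 0.14 in those comparisons, and the third Pgk1 probe set read -0.06 and -0.04.

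Pkm, pyruvate kinase, and Ldha, lactate dehydrogenase A, also had all 4 treated arrays above the DMSO array. Pkm read 7343 with DMSO, 8345 and 7939 with vemurafenib and 7989 and 8010 with PLX7904. Ldha read 15173 with DMSO, 16352 and 16626 with vemurafenib and 17401 and 16572 with PLX7904. Neither passed: log2 differences from DMSO were 0.15 and 0.12 with vemurafenib and 0.12 and 0.16 with PLX7904. Between the compounds, Ldha differed by 0.971-fold (95% interval 0.895 to 1.05), Pgk1 by 1.02-fold (0.943 to 1.11) and Pkm by 1.02-fold (0.928 to 1.12). Tpi1, the isomerase, and Pgam1, the mutase, differed between vemurafenib and DMSO by 0.07 (SE 0.08) and 0.16 (SE 0.08).

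**Figure D3:**
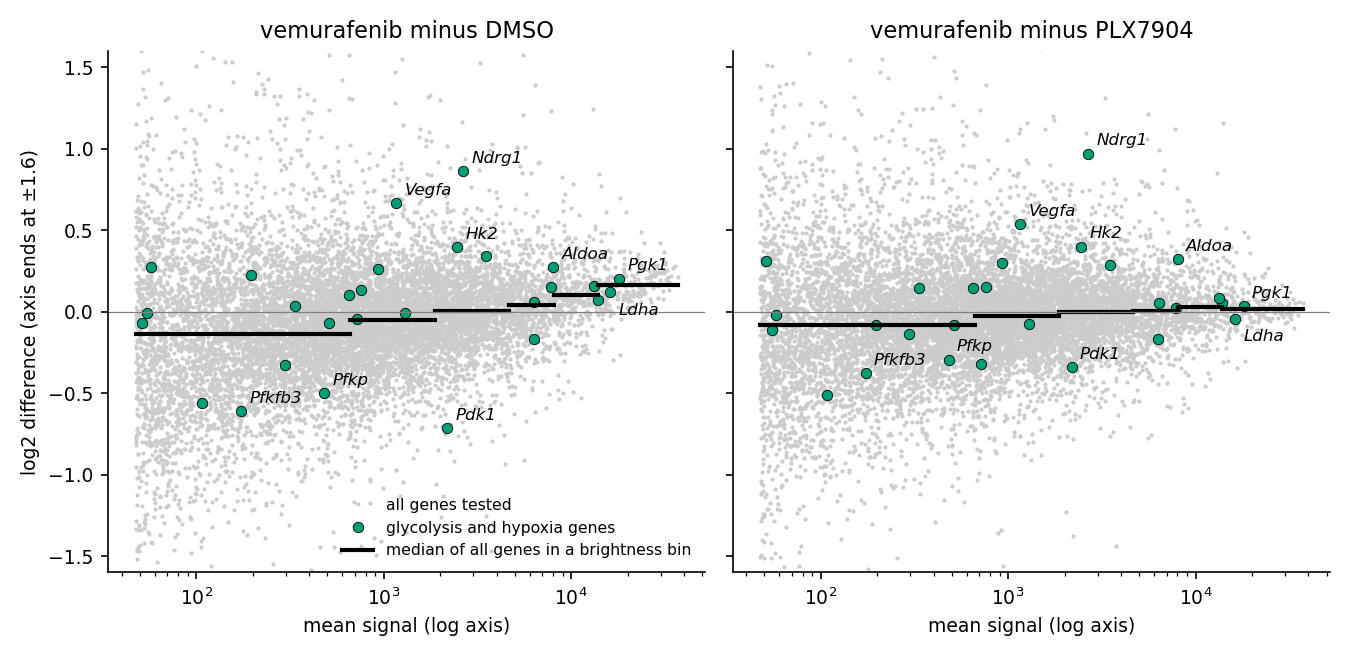
Log2 difference against mean signal (log axis) for all 10852 genes (grey) and for the 28 tested glycolysis and hypoxia genes (green), with black bars for the median of all genes in 6 ranges of brightness. The axis leaves out 74 genes in the left panel and 44 in the right panel whose difference exceeds 1.6. In the comparison of vemurafenib with DMSO the bars climb from -0.14 to 0.16 with brightness and Pgk1 and Ldha lie near them. Ndrg1, Vegfa, Hk2 and Aldoa lie above the bars there and Pdk1 below.

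Pdk1, pyruvate dehydrogenase kinase 1, closes the gate from pyruvate to the mitochondria and is a well known HIF target, and it was the only member that fell. Its signal was 2746 with DMSO, 1694 and 1653 with vemurafenib and 1910 and 2354 with PLX7904. The groups did not overlap, and the PLX7904 arrays lay between the others. Pdk1 was 1.64 times lower with vemurafenib than with DMSO (95% interval 1.35 to 1.99, adjusted p = 0.0059). With PLX7904 it was 1.29 times lower (1.07 to 1.57, adjusted p = 0.561) and did not pass. The difference between the compounds, a log2 value of -0.34 (SE 0.10, adjusted p = 0.0521), also missed the threshold. It passed with robust fitting (adjusted p = 0.0439), with the limit at the 75th percentile (adjusted p = 0.0375) and without PLX7904 replicate 1 (-0.49, adjusted p = 0.00846). Of its 4 probe sets 3 were bright enough to test, and all read lower against DMSO (-0.71, -0.52 and -0.54), but the call ended when all 4 were averaged (-0.52, adjusted p = 0.0969).

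The genes of oxygen sensing did not pass in any comparison. Hif1a, the regulated alpha subunit of HIF, read 6534 with DMSO, 5500 and 6168 with vemurafenib and 6430 and 6678 with PLX7904, with both vemurafenib arrays lowest. Its log2 difference was -0.17 from DMSO (SE 0.09) and -0.17 from PLX7904 (SE 0.07, adjusted p = 0.155). Transcript levels say nothing of HIF protein, which is controlled mainly by its destruction. Egln1 and Egln3 encode the hydroxylases that mark HIF for destruction, and Egln3 is itself raised by HIF. Egln1 differed by -0.01 from DMSO (SE 0.11). Egln3 read 679 with DMSO, 653 and 662 with vemurafenib and 895 and 753 with PLX7904, so that PLX7904 was highest. The log2 difference between the compounds was -0.32 (SE 0.11, adjusted p = 0.0924) and passed only without PLX7904 replicate 2 (-0.44, adjusted p = 0.045) among the alternatives at a threshold of 0.05.

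Among secreted and surface products, Vegfa, the growth factor for blood vessels, read 946 with DMSO, 1411 and 1601 with vemurafenib and 979.9 and 1096 with PLX7904. Both vemurafenib arrays stood above the other 3. Vegfa rose 1.59-fold over DMSO (95% interval 1.31 to 1.92, adjusted p = 0.0083) and was 1.45-fold higher than with PLX7904 (1.24 to 1.70, adjusted p = 0.00723). A dimmer probe set (mean signal 289) read a log2 difference of 0.72 from DMSO and 0.33 from PLX7904. In the fit of probe sets it passed against DMSO (adjusted p = 0.0318) and did not pass against PLX7904 (adjusted p = 0.179). Adm, the vasodilator peptide adrenomedullin, lay near the limit on signal, at 56.5 with DMSO, 56.7 and 50.9 with vemurafenib and 48.2 and 37.9 with PLX7904, and its interval against DMSO ran from 0.439-fold to 2.07-fold. Car9, the surface carbonic anhydrase that is a common marker of hypoxia, read 11.1 with DMSO, 32.4 and 41.4 with vemurafenib and 22.5 and 39.8 with PLX7904, all under the limit of 47.4.

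Ndrg1, a gene of stress and differentiation that hypoxia induces, had the largest difference among the members. It read 2130.0 with DMSO, 3780.2 and 3963 with vemurafenib and 1921 and 2032 with PLX7904. The vemurafenib arrays stood far above the other 3, and both PLX7904 arrays lay under DMSO. Ndrg1 rose 1.82-fold over DMSO (95% interval 1.57 to 2.10, adjusted p = 0.000379) and was 1.96-fold higher than with PLX7904 (1.74 to 2.20, adjusted p = 5.2e-05). All 5 of its probe sets read higher with vemurafenib, with log2 differences of 0.32 to 1.12 against DMSO and 0.57 to 0.97 against PLX7904. Of those whose suffix marks no cross-match, the one with a mean signal of 598 read 1.12 and 0.92 and passed in both. The one with a mean of 408 read 0.51 (adjusted p = 0.163) and 0.57 (adjusted p = 0.0588) and did not pass. No call of a member held in the fit without limma's trend of variance with signal, which called 43 genes in all against DMSO and 35 against PLX7904. For Ndrg1 (adjusted p = 0.0708 and 0.0534) and Vegfa (0.124 and 0.102) it was the only one of 18 and 19 alternatives that ended a call.

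**Figure D4:**
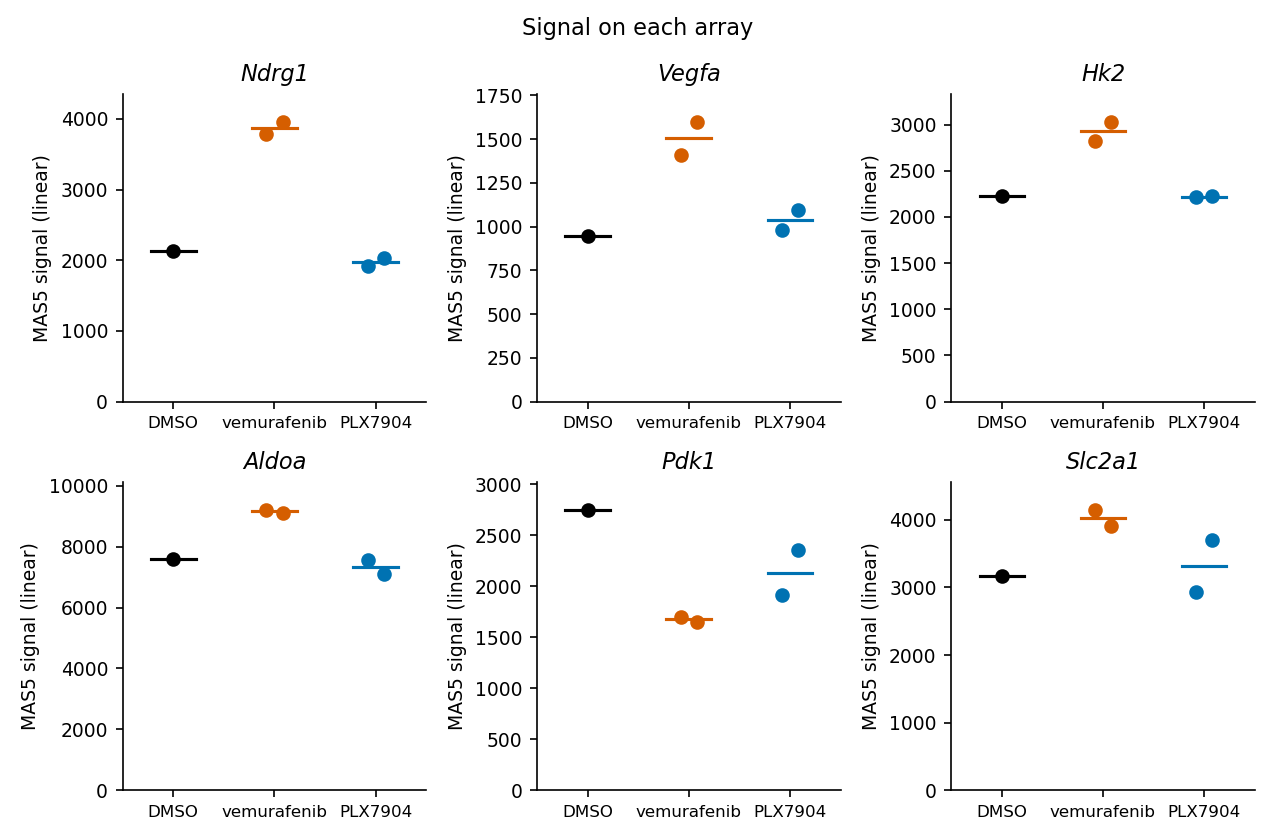
Signal (linear, axis from 0) of 6 genes on each array, with 1 point per array and a line at the group mean. Ndrg1 reads 3780.2 and 3963 with vemurafenib and at most 2130.0 elsewhere, Vegfa, Hk2 and Aldoa are also highest with vemurafenib by a smaller margin, Pdk1 is lowest with vemurafenib, and for Slc2a1, which did not pass, the PLX7904 arrays lie at 2928 and 3710.

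The remaining hypoxia genes did not pass. Bnip3, a receptor for mitophagy, read 643 with DMSO, 716 and 664 with vemurafenib and 590.0 and 658 with PLX7904. Higd1a, a mitochondrial protein of the hypoxic response, differed from DMSO by 0.06 with vemurafenib (SE 0.08), with an interval of 0.924-fold to 1.17-fold. Ankrd37, a small ankyrin protein used as a hypoxia marker, was dim, with signals of 49.3 to 60.8 over the 5 arrays. Both PLX7904 arrays (60.8 and 54.9) were above the DMSO array (53.5), and the vemurafenib arrays lay on either side of it.

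Collagen-modifying enzymes were mixed. P4ha2, a prolyl hydroxylase of collagen, read 879 with DMSO, 1051 and 1062 with vemurafenib and 846 and 872 with PLX7904. The vemurafenib arrays were above the rest, but the log2 differences of 0.26 from DMSO (SE 0.11, adjusted p = 0.174) and 0.30 from PLX7904 (SE 0.09, adjusted p = 0.0605) did not pass. The second of these passed with the limit at the 75th percentile (adjusted p = 0.0484), after median centring (0.44, adjusted p = 0.0147) and, at 0.32, under cyclic loess (adjusted p = 0.0494). P4ha1, its sister, read 0.03 against DMSO (SE 0.17). Plod1 and Plod2, lysyl hydroxylases of collagen, read -0.56 (SE 0.31) and 0.22 (SE 0.24), both on dim probe sets with means of 108 and 196.

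**Figure D5:**
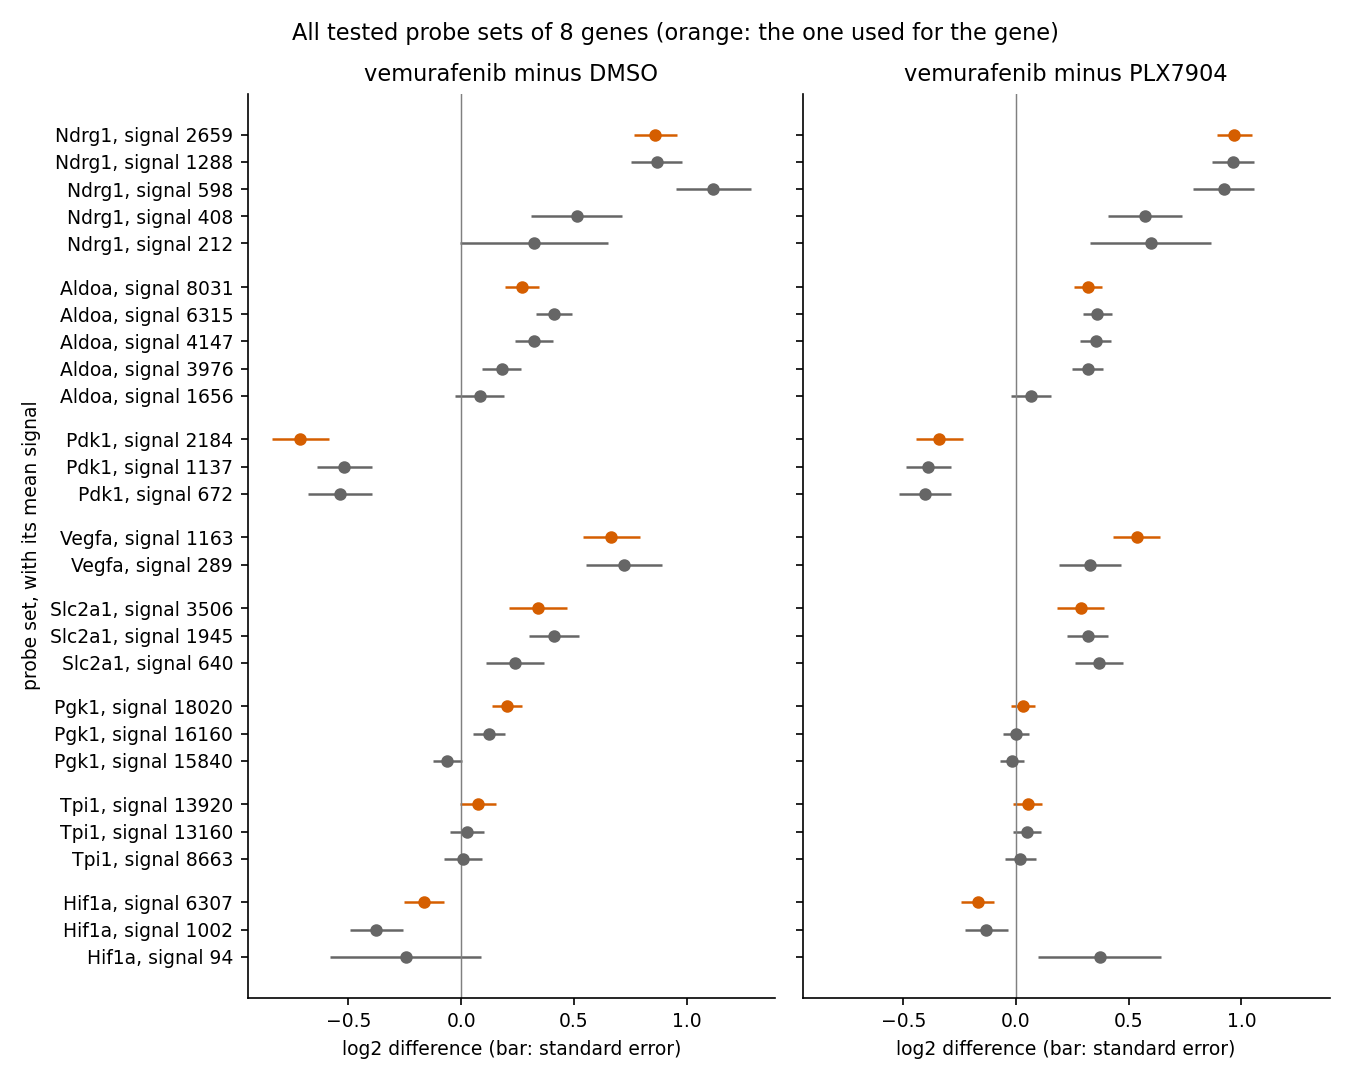
Log2 differences of every tested probe set of 8 genes, labelled with mean signal, with bars for standard errors and the probe set used for the gene in orange. All probe sets of Ndrg1, Aldoa, Vegfa and Slc2a1 lie to the right of 0 and all of Pdk1 to the left, whereas those of Pgk1 lie on both sides in each panel.

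Over the 16 members with more than 1 tested probe set, all probe sets pointed the same way in 11 members between vemurafenib and DMSO, in 8 between the compounds and in 7 between PLX7904 and DMSO. The mixed ones against DMSO were Egln1, Egln3, Higd1a, Pfkp and Pgk1.

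The promoters are shown because the members share a known regulator. RefSeq starts on GRCm38.p6 were found for 30 of the 33 members, and the 250 bases before each start were searched on both strands for ACGTG and GCGTG. The longer CACGTG overlaps the first. At least 1 annotated start of 28 members held ACGTG or GCGTG, as did those of 62.8% of the 8851 genes tested on the arrays that had a promoter and 41.5% of all 27025 genes. For ACGTG alone it was 18 of 30 members and 25.4% of genes tested. Median GC content of the windows was 62.8% for members, 60% for genes tested and 52.4% for all genes, and many members were picked as known HIF targets, so the shares are a description. The 6 windows listed here run 5′ to 3′ on the gene's strand and end at the base before the start, with matches in capitals. They are chr6:82774455-82774704 on the minus strand for Hk2, chr7:126799255-126799504 on the minus strand for Aldoa (the middle of 3 starts), chr17:46032378-46032627 on the minus strand for Vegfa (the upstream one of 2 starts), chr2:71872974-71873223 on the plus strand for Pdk1, chrX:106186850-106187099 on the plus strand for Pgk1 and chr7:46845554-46845803 on the plus strand for Ldha.
Hk2: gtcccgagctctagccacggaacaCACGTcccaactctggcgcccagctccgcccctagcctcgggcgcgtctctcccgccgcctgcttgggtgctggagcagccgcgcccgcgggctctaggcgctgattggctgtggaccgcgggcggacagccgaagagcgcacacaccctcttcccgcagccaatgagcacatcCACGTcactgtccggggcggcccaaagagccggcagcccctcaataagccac
Aldoa: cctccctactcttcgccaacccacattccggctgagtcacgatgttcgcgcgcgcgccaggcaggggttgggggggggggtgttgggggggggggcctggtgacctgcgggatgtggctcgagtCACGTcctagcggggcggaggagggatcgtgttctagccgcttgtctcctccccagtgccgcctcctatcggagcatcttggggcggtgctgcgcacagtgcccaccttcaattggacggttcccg
Vegfa: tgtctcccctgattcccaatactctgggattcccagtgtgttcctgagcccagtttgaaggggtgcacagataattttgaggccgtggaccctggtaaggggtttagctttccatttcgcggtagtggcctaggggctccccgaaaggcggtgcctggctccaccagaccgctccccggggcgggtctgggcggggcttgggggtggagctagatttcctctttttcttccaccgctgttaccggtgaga
Pdk1: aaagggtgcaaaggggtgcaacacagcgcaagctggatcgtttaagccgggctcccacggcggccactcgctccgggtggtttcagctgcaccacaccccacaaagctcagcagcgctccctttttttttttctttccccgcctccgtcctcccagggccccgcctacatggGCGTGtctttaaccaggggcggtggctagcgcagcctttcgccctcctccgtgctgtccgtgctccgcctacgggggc
Pgk1: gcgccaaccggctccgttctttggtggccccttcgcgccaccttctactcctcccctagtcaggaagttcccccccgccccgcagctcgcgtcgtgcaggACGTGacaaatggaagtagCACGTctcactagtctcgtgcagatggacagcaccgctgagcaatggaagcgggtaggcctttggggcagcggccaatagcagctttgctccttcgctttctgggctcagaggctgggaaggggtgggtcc
Ldha: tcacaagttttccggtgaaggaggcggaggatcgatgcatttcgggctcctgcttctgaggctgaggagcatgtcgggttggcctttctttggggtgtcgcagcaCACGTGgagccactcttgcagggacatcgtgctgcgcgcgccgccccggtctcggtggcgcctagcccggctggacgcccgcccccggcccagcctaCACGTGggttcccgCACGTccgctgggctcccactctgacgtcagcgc

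The Pgk1 window holds ACGTG 150 and 131 bases before the start on opposite strands, and the Ldha window holds 5 matches, 4 of them in pairs that spell CACGTG. Hk2 holds ACGTG 226 and 52 bases before its start, Aldoa 126 bases before, and Pdk1 holds GCGTG 78 bases before. The Vegfa window has no match, which says only that these letters are not in it, and the window of its other start holds GCGTG 218 and ACGTG 211 bases before. Of the members that passed, Hk2, Aldoa and Pdk1 thus had a match in the window listed, as did Pgk1 and Ldha, which did not pass. Vegfa had matches only at its downstream start and none at the upstream one. Whether the window of the downstream start acts as a promoter was not tested. Ndrg1, Plod2 and Bnip3l were not searched. A match is a run of letters and not a measured site.

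Other genes of the same pathways were taken from 5 lists. Their counts stand against 5.43% of all genes tested that were higher and 5.21% that were lower with vemurafenib than with DMSO, and 6.43% and 6.87% than with PLX7904, with all-gene medians of -0.05 and -0.04. No gene on them passed between PLX7904 and DMSO. Of 12 measured genes for other isoforms and transporters of glycolysis, 0 passed in any comparison, and the median was -0.07 against DMSO and -0.11 between the compounds. Of 9 genes for the entry of pyruvate into mitochondria, 1 (11.1%) rose with vemurafenib over DMSO and 0 fell, with a list median of -0.0012. It was Pdp1, the phosphatase that undoes the action of Pdk1 on pyruvate dehydrogenase, at 1.66-fold (95% interval 1.27 to 2.16, adjusted p = 0.024). It read 492 with DMSO, 856 and 779 with vemurafenib and 523 and 702 with PLX7904, a difference between compounds that did not pass (log2 0.43, adjusted p = 0.0726). Its call against DMSO ended when dim genes were not removed (adjusted p = 0.07). Of 7 genes of the pentose phosphate pathway 1 (14.3%) passed in each comparison of vemurafenib and 0 were lower, with list medians of 0.11 against DMSO and 0.06 between the compounds. Rpia, which isomerises ribose phosphate, rose 1.54-fold over DMSO (adjusted p = 0.00504) and was 1.38-fold higher than with PLX7904 (adjusted p = 0.00612).

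Of 15 HIF subunits and regulators, 2 (13.3%) rose over DMSO and 0 fell, and 1 (6.67%) was higher than with PLX7904. The list's medians were -0.06 and 0.01. Cited2, which competes with HIF for its coactivators, rose 1.28-fold (adjusted p = 0.0211), and it was 1.19-fold higher than with PLX7904 (adjusted p = 0.0316). Without vemurafenib replicate 2 these were log2 0.29 (adjusted p = 0.0995) and 0.19 (adjusted p = 0.248), and without PLX7904 replicate 1 the second was 0.21 (adjusted p = 0.0913). Each Cited2 call ended in 6 alternatives in all. Siah2, a ubiquitin ligase that destroys the HIF hydroxylases, rose 1.53-fold (adjusted p = 0.0464), a call that ended in 6 of 17 alternatives, among them the fit without vemurafenib replicate 2 (log2 0.50, adjusted p = 0.171).

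Of 21 other genes that hypoxia induces, 2 (9.52%) rose over DMSO and 1 (4.76%) fell, and the same numbers were higher and lower than with PLX7904. The list's medians were -0.08 and -0.04. Mxi1, an antagonist of MYC, read 765 with DMSO, 1553 and 1423 with vemurafenib and 691 and 737 with PLX7904. It rose 1.94-fold over DMSO (95% interval 1.62 to 2.33, adjusted p = 0.000958) and was 2.08-fold higher than with PLX7904 (1.79 to 2.41). Angptl4, a secreted inhibitor of lipoprotein lipase, rose 2.69-fold (2.01 to 3.59, adjusted p = 0.00129) and was 2.16-fold higher than with PLX7904 (1.71 to 2.74). Averaging its probe sets ended both calls (log2 0.94, adjusted p = 0.204, and 0.69, adjusted p = 0.224). Bhlhe40, a repressor of the circadian clock, was 1.44 times lower with vemurafenib than with DMSO (adjusted p = 0.0241). It read 1016 with DMSO, 681 and 726 with vemurafenib and 774 and 708 with PLX7904. The DMSO array was thus above all 4 treated arrays. With PLX7904 it was 1.37 times lower than with DMSO (adjusted p = 0.465), which did not pass. Nor did the log2 difference between the compounds, -0.07 (adjusted p = 0.695). The call of Bhlhe40 against DMSO ended in 5 of 18 alternatives, among them the fit without vemurafenib replicate 1 (log2 -0.48). Car12, another surface carbonic anhydrase, was 1.45 times lower with vemurafenib than with PLX7904 (adjusted p = 0.0443). That call ended in 10 of 19 alternatives, among them the fits without vemurafenib replicate 2 (log2 -0.29, adjusted p = 0.273), without PLX7904 replicate 1 (-0.48, adjusted p = 0.158) and without PLX7904 replicate 2 (-0.59, adjusted p = 0.0958).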

How the data were processed

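Transcripts of B9 cells were measured on 5 Affymetrix 3′ arrays. The deposited values are linear intensities, 1 per probe set and array, made with MAS5 per the submitters' processing notes, which state no version. Each array's deposited values had a trimmed mean (middle 96%) of 500, a scaling of whole arrays. No detection calls were used.

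Of 45101 probe sets, 34945 had 1 symbol in the platform annotation, 932 several and 9160 none, and 64 were controls. Each gene was read from its brightest single-symbol probe set, by the average of the group means. Values were analysed as log2(signal + 3.34), the 10th percentile of all values, which understates changes of dim genes, and genes with a mean of at least 47.4 (the median) were tested.

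A model with 3 group means and all 5 arrays was fitted in limma 3.58.1 (R 4.3.3). Variances were moderated by eBayes with a trend on intensity, on 2 residual and 8.27 prior degrees of freedom. Tests were two-sided and adjusted by Benjamini-Hochberg over all genes within a comparison, with a threshold of 0.05. The fit was tested on simulated data. Each probe set was also fitted separately, adjusted over 19755 probe sets. Figures used Python 3.11.15 and matplotlib 3.10.9.

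The members and lists were chosen with earlier results of these data known. Text names all members and, from each other list and comparison, up to 2 called genes at either end. Promoters came from RefSeq, GRCm38.p6. Alternatives were the pseudocount, the limit on signal, normalization, variance model, probe set choice, a replicate block, thresholds, the 4 treated arrays alone and leaving out each treated array.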

Additional observations from a re-analysis of the deposited data

How the results depend on the processing

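Under 19 alternatives (18 for comparisons with DMSO, which cannot lose its only array) none of the 9 calls of members, nor of the 12 calls of other pathway genes, changed direction. The number of members higher with vemurafenib than with DMSO was 4, and it was 0 without limma's intensity trend, 2 at a threshold of 0.01, and 2 to 6 when a treated array was left out. Among them Aldoa lost its call when dim genes were not removed, under quantile normalization, median centring and cyclic loess, and with the mean of all probe sets. Slc2a1 gained one with median centring and Pgk1 at a threshold of 0.10. The number of members lower with vemurafenib than with DMSO was 1. It was 0 without the trend and with the mean of all probe sets, and 2 with the limit on signal at the 75th percentile, without probe sets of the suffix x, s or a, and at a threshold of 0.10. Between the compounds 4 members were higher, and 0 without the trend. P4ha2 was also called higher with the limit at the 75th percentile and under cyclic loess. Slc2a1 was also called higher without suffixed probe sets, a setting that leaves Aldoa no probe set. Both P4ha2 and Slc2a1 were called higher with median centring and at a threshold of 0.10. Leaving out an array also changed which members were called. No member was lower, but 1 was with the limit at the 75th percentile, robust fitting, the omission of suffixed probe sets or the replicate block, 2 were at a threshold of 0.10, and 0 to 1 when an array was left out. For PLX7904 against DMSO no alternative called a member. Same-numbered arrays of the compounds share a number in the labels, which state nothing on a shared culture or batch. Their deviations correlated at r = -0.00711 over the genes tested, and a shared batch was not tested further. With that number as a replicate block, 1583 genes in place of 1443 passed between the compounds. Pdk1 then passed there (adjusted p = 0.0338), and Siah2 did not pass against DMSO (adjusted p = 0.0773). Median centring moved the median of all genes from -0.05 to 0.10 against DMSO and from -0.04 to 0.11 between the compounds, and the members' medians with it, from 0.09 to 0.237 and from 0.03 to 0.174. It made 792 of 1019 calls against DMSO higher, where the main fit had 589 of 1154, and 1225 of 1532 between the compounds, where it had 698 of 1443. The cause of the other changes was not tested. Members with signals near the limit, such as Adm, Ankrd37 and Slc16a3, have 95% intervals against DMSO that reach past 2-fold.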
